A study of Mus musculus with 42 samples.

Results

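This comparison set regulatory T cells (Treg) of visceral fat labelled Osm knockout against Treg labelled Osm wild type. The members were 6 libraries, taken by sample title from the 42 libraries and 15 groups of a mouse series on fat stromal cells, adipocytes and Treg. The 3 wild-type (WT) libraries carried the genotype label OSM+/+ and the 3 knockout (KO) libraries the label OSMf/f, which names a floxed allele. Both groups came from epididymal visceral adipose tissue (eVAT), were labelled Treg, and were made from poly(A) RNA of 1000 cells sorted in 2 rounds by the same low-input protocol. No treatment was labelled for either group. The labels did not name a Cre driver, a strain, an age, a sex, a sorting gate or whether each library came from its own animal, so p-values measure the spread between these libraries, which may be technical. Osm was 2.85-fold lower in the KO libraries without being abolished. Across 11416 tested genes, Lpcat2, an enzyme of phospholipid remodelling, was the single gene that edgeR called higher, 3.89-fold (adjusted p = 0.0445). The 5 genes that edgeR called lower were 4 members of a repeat-like family of predicted genes and the pseudogene Gm6969. These calls depended on the tool and on single libraries. DESeq2 called 26 genes higher and 38 lower, and edgeR called 0 genes without WT replicate 1 or 3. Lists of Treg identity, fat Treg, cytokine signalling and metabolic genes held no other edgeR call, where 0.0526% of all genes were called. This does not show that the genes of these lists were unchanged.

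Visceral fat Treg are a tissue population that carries Foxp3, the lineage factor of all Treg, together with Pparg, Gata3 and the IL-33 receptor Il1rl1, and they are known for restraining inflammation in fat. Oncostatin M (OSM) is a secreted cytokine of the IL-6 family. It acts on cells that carry gp130 (Il6st) paired with the OSM receptor chain (Osmr) or, less so in the mouse, the LIF receptor chain (Lifr), and it signals through JAK kinases and STAT3. In fat the cells best known to carry Osmr are stromal cells and adipocytes rather than T cells. The comparison bears on what else differs inside the Treg when their Osm gene is altered.

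The libraries were not equal in quality. WT totals were 4438234, 3341231 and 3902616 counts, and KO totals were 4172262, 1507163 and 3349017. Genes with at least 1 count numbered 16756 in KO replicate 2 and between 21202 and 24287 in the other 5 libraries. WT libraries correlated with each other at 0.956 to 0.960 across genes, and KO libraries at 0.886 to 0.922. Pairs of a KO with a WT library lay at 0.899 to 0.940. KO replicates 1 and 3 correlated more with each WT library than with any other KO library. KO replicate 2 correlated with the WT libraries at 0.899 to 0.906 and with KO replicate 1 at 0.886. The median SD of a gene on the log2 scale was 0.23 in WT and 0.39 in KO. KO replicates 1 and 2 also departed from WT in opposite ways with GC content, which is described further on. The main results are given beside the fit without KO replicate 1 where that library decided the call. KO replicate 2 had the fewest counts, and the fit without it called 5 genes (0.0409%), against 586 without KO replicate 1 (4.95%). Passing without KO replicate 1 is therefore no sign of a stable call. Il10, Prdm1, Il2rb and Socs5 passed in that fit but not without KO replicate 2 (edgeR adjusted p = 0.463, 0.413, 0.570 and 0.521). The 5 genes called without KO replicate 2 were the 5 main calls that fell. Every other gene said below to pass without KO replicate 1 did not pass without KO replicate 2.

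All 6 libraries carried the Treg genes Foxp3 and Il2ra. Levels are given as CPM, a gene's count relative to the library total. Foxp3 was at 315, 332 and 294 CPM in WT and 154, 359 and 316 CPM in KO libraries. KO replicate 1 was the one library outside the WT range by a wide margin, and Foxp3 did not pass the test (log2 fold change -0.14 ± 0.26, edgeR adjusted p = 0.906). Without KO replicate 1 its log2 fold change was 0.17 ± 0.14, and the direction turned. Il2ra, the high-affinity IL-2 receptor chain, was at 562, 672 and 671 CPM in WT and 649, 713 and 790.1 CPM in KO libraries (log2 fold change 0.21 ± 0.14, adjusted p = 0.66). Markers of other T cells and NK cells were not all low. Cd8a, a CD8 chain, was at 1.58, 0.299 and 0.256 CPM in WT and at 0 in every KO library, while the other CD8 chain Cd8b1 was at 18.3, 20.4 and 15.4 CPM in WT and 10.3, 27.2 and 9.26 CPM in KO libraries. The cytotoxic granule gene Nkg7 was at 117, 132 and 197 CPM in WT and 192, 168 and 184 CPM in KO libraries. The list of conventional CD4, CD8 and NK markers summed to 337 to 413 CPM in WT and 369, 439 and 418 CPM in KO libraries. The defining adipocyte marker Adipoq was at 0.676, 0 and 0 CPM in WT and 0, 0 and 0 CPM in KO libraries.

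Markers of other cells varied among the KO libraries. The 20 macrophage and dendritic markers summed to 10.5 to 23.4 CPM in WT and 92.3, 15.9 and 20.0 CPM in KO libraries, so KO replicate 1, the library with the least Foxp3, stood apart. There Mrc1, a macrophage scavenger receptor, reached 18 CPM and Csf1r, the growth factor receptor of macrophages, 12 CPM, while Clec9a was at 0 in all 6 libraries. The 16 markers of innate lymphoid type 2 cells, mast cells and granulocytes summed to 43.1 to 51.2 CPM in WT and 45.5, 15.9 and 21.5 CPM in KO libraries. The 10 B cell markers summed to 569 to 689 CPM in WT and 589, 784 and 612 CPM in KO libraries, most of it Ighm, the immunoglobulin M heavy chain gene, at 631, 528 and 539 CPM in WT and 563, 706 and 569 CPM in KO libraries. The 18 stromal markers summed to 126 to 136 CPM in WT and 138, 127 and 129.6 CPM in KO libraries, and the 12 adipocyte markers to 5.09 to 9.01 CPM in WT and 10.8, 1.33 and 2.99 CPM in KO libraries. The part of these cells in the results was not tested. In bulk libraries of sorted cells, fewer cells of a type and less RNA per cell cannot be told apart.

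Osm was lower in every KO library but was not abolished. Osm lies on the plus strand at chr11:4236420-4241026 (GRCm38), and stood at 29.1, 28.4 and 34.1 CPM in WT and 9.83, 14.6 and 7.76 CPM in KO libraries. These values rested on 129, 95 and 133 counts in WT and on 41, 22 and 26 counts in KO. The groups did not overlap, and the group means were 30.5 ± 3.09 and 10.7 ± 3.50 CPM (SD, n = 3 each), a 2.85-fold lower level in KO. The log2 fold change was -1.51 ± 0.35 (95% interval -2.26 to -0.76). It did not pass over all genes in edgeR (adjusted p = 0.271), and it passed in DESeq2 (adjusted p = 0.0126) and in edgeR without KO replicate 1 (adjusted p = 0.0389). Without KO replicate 2 it did not pass in edgeR (adjusted p = 0.229). The counts cover the whole gene, so they do not show which exons the remaining reads came from. In the other 36 libraries of the series, of stromal cells and adipocytes, Osm was between 0 and 0.696 CPM and at 0 in 26 libraries, so the KO level stood well above that background.

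The genes around Osm held no call. Of 14 tested genes within 500 kb of Osm, 1 had an unadjusted p under 0.05 (10.1% of all genes tested did) and 0 were called at an edgeR adjusted p under 0.05 (0.0526% of all genes were), with a median log2 fold change of 0.00 and a range of -0.63 to 0.76. The lowest was Mtmr3, a myotubularin phosphatase of phosphoinositides, at 179.8, 195 and 185 CPM in WT and 109, 104 and 138 CPM in KO libraries (log2 fold change -0.63 ± 0.17, adjusted p = 0.347). The highest was Dusp18, a dual-specificity phosphatase, at 6.31, 1.80 and 3.59 CPM in WT and 6.47, 9.29 and 4.18 CPM in KO libraries (log2 fold change 0.76 ± 0.63, adjusted p = 0.744).

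The Treg carried some ligands of the family besides Osm. Clcf1, a ligand of the ciliary neurotrophic factor receptor, was at 46.9, 40.7 and 45.9 CPM in WT and 21.8, 37.2 and 38.5 CPM in KO libraries, lower in every KO library but not past the test (log2 fold change -0.43 ± 0.28, adjusted p = 0.655). Lif, the ligand closest to Osm in sequence and position, was at 21, 14.4 and 20.0 CPM in WT and 23.7, 22.6 and 18.5 CPM in KO libraries, and the groups overlapped (log2 fold change 0.26 ± 0.32, adjusted p = 0.842). Il6, Il11, Ctf1, Cntf and Il27 had at most 6 counts in any library and were not tested.

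The receptor side showed that these Treg hardly carried the OSM receptor chain. Osmr was at 0.451, 1.80 and 0.512 CPM in WT and 0.240, 0.663 and 0 CPM in KO libraries, or 10 counts in WT and 2 in KO, and was not tested. Lifr was at 1.35, 0.299 and 0.256 CPM in WT and 0.479, 5.97 and 0.299 CPM in KO libraries, also untested. The shared chain Il6st was at 100.5, 107 and 136 CPM in WT and 103, 39.1 and 75.5 CPM in KO libraries, with overlapping groups (log2 fold change -0.61 ± 0.28, adjusted p = 0.498). Il6ra, which directs IL-6 to gp130, was at 84.7, 68.8 and 65.6 CPM in WT and 67.8, 88.2 and 78.2 CPM in KO libraries (log2 fold change 0.13 ± 0.21). Il27ra, the IL-27 receptor chain, was the most abundant receptor of the family at 263, 273 and 301 CPM in WT and 250.0, 308 and 281 CPM in KO libraries (log2 fold change 0.04 ± 0.15). Of 16 family members 7 were tested and 0 called, where 0.0526% of all genes were called. Their median log2 fold change, with Osm among the 7, was -0.33 against 0.01 over all genes tested. It was -0.17 without KO replicate 1 and -0.06 without KO replicate 2.

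**Figure D1:**
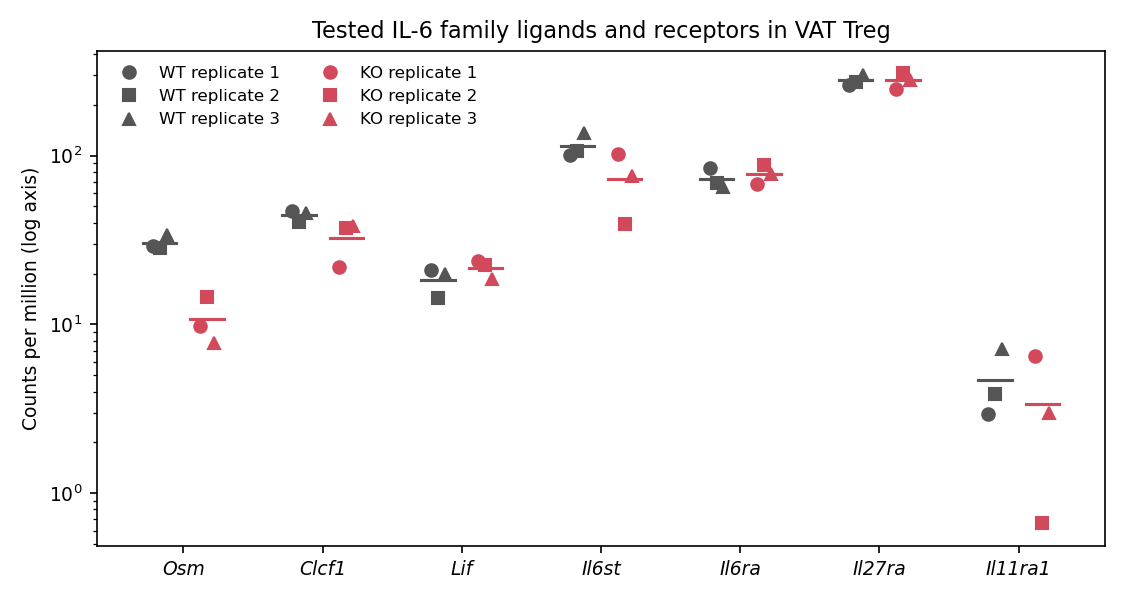
CPM of the 7 tested IL-6 family genes on a log axis, 1 symbol per library and a bar at each group mean (grey WT, red KO, n = 3 each). Osm is the gene whose groups stand farthest apart, with KO at 7.76 to 14.6 CPM against 28.4 to 34.1 CPM in WT, while Il6ra and Il27ra overlap.

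Downstream of the receptor, JAK, STAT and SOCS genes held no called gene. Of 27 tested, 3 were higher and 1 was lower at an unadjusted p under 0.05, beside 4.96% and 5.19% of all 11416 genes tested. Stat3, the main transcription factor of the pathway, was at 545, 541 and 559 CPM in WT and 460.2, 588 and 475 CPM in KO libraries (log2 fold change -0.07 ± 0.15, adjusted p = 0.916). Socs3, the feedback inhibitor that binds gp130, was at 214, 214 and 231 CPM in WT and 181, 218 and 172 CPM in KO libraries (log2 fold change -0.17 ± 0.16, adjusted p = 0.782).

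The smallest p-values of this list were divided between directions. Socs7 was at 23.2, 26 and 12.6 CPM in WT and 6.47, 10.6 and 9.26 CPM in KO libraries (log2 fold change -1.21 ± 0.41, adjusted p = 0.376). Socs2, a feedback inhibitor of growth hormone and STAT5 signals, was at 164, 185 and 180.4 CPM in WT and 232, 228 and 228 CPM in KO libraries, a small difference without overlap (log2 fold change 0.41 ± 0.15, adjusted p = 0.384). Socs5 and Pias2, an inhibitor of STAT binding to DNA, had log2 fold changes of 1.11 ± 0.42 and 0.85 ± 0.32 (adjusted p = 0.398 for both). Without KO replicate 1, Socs5 was the single call among these 27 genes (adjusted p = 0.0317), where 3.55% of all genes were called higher.

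Known STAT3 targets likewise held 0 called genes of 22 tested, with 1 higher and 1 lower at an unadjusted p under 0.05, beside 4.96% and 5.19% of all genes (0.0526% were called), and a median log2 fold change of -0.11. Il10, the suppressive cytokine, was at 152, 106 and 88.9 CPM in WT and 84.6, 50.4 and 58.2 CPM in KO libraries, lower in every KO library (log2 fold change -0.80 ± 0.25, adjusted p = 0.367). It passed without KO replicate 1 (adjusted p = 0.0229). Myc was at 231, 227 and 249.6 CPM in WT and 339.6, 280.0 and 285 CPM in KO libraries (log2 fold change 0.39 ± 0.14, adjusted p = 0.394). The kinase gene Pim1 and the immediate early gene Fos had log2 fold changes of -0.33 ± 0.16 and -0.29 ± 0.14 (adjusted p = 0.521 and 0.533), both lower in all 3 KO libraries.

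Over all genes the test called few. Of 11416 genes tested, 1 rose and 5 fell in KO at an edgeR adjusted p under 0.05, which is 0.0526% of the genes (0.00876% higher and 0.0438% lower). At an unadjusted p under 0.05 there were 1158 genes (10.1%). The groups did not overlap for 1827 genes (16%), 678 higher (5.94%) and 1149 lower (10.1%). The median standard error of a log2 fold change was 0.30. For 5888 genes (51.6%) the 95% interval lay inside a 2-fold change in either direction, and for the others these libraries could not place the difference within that bound.

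The count of calls depended on the tool and on single libraries. DESeq2 called 64 genes, 26 higher (0.232%) and 38 lower (0.339%), or 0.572% of those with an adjusted p, among them all 6 edgeR genes. Without KO replicate 1, edgeR called 586 genes of 11832 tested (4.95%). Without WT replicate 1, 2 or 3 it called 0, 1 and 0 genes, with 763, 688 and 759 at an unadjusted p under 0.05. Without KO replicate 2 it called 5 genes, all lower (0.0409%), and without KO replicate 3 it called 1.

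**Figure D2:**
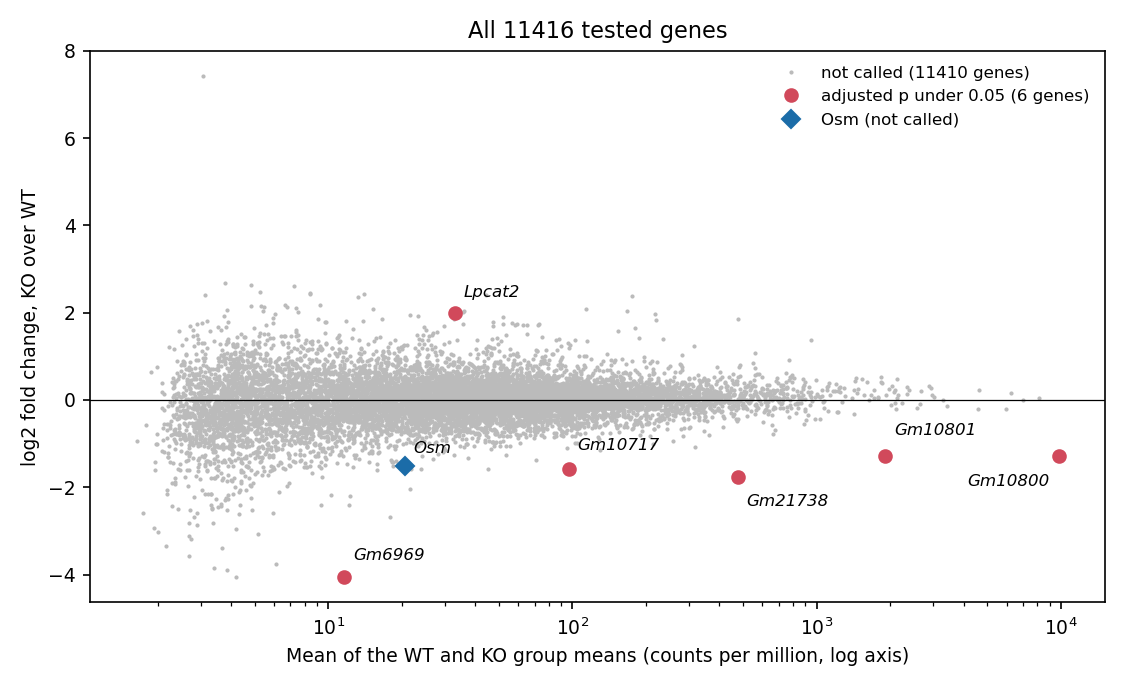
Log2 fold change, KO over WT, of all 11416 tested genes against the mean level on a log axis, with the 6 genes called by edgeR in red and Osm as a blue diamond. Lpcat2 is the only called gene above 0, 5 predicted genes lie below it, and Osm sits at -1.51 without passing the test.

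In edgeR, Lpcat2 was the single gene called higher. It encodes an acyltransferase of the endoplasmic reticulum and lipid droplets that remodels phosphatidylcholine and makes platelet-activating factor (PAF). Lpcat2 lies at chr8:92855339-92919279 (GRCm38, plus strand), and stood at 14.9, 10.5 and 15.1 CPM in WT and 59.2, 59.1 and 39.1 CPM in KO libraries. Every KO library was at least 39.1 CPM and no WT library exceeded 15.1 CPM. The group means were 13.5 ± 2.61 and 52.5 ± 11.6 CPM (SD, n = 3 each), 3.89-fold higher in KO (log2 fold change 1.99 ± 0.30, edgeR adjusted p = 0.0445). The adjusted p was 1.5e-06 in DESeq2 and 0.00272 without KO replicate 1. The call of the gene Lpcat2 was lost without KO replicate 2 or 3 and without any 1 WT library (adjusted p from 0.111 to 0.505 over these 5 fits), with a replicate block and without the predicted genes or the repeat family. Macrophage and dendritic markers summed to 92.3, 15.9 and 20.0 CPM in the same 3 KO libraries, and their part in the level was not tested. In the other 36 libraries Lpcat2 was between 0 and 10.2 CPM.

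Of 30 tested genes of phospholipid remodelling and eicosanoids, Lpcat2 was the 1 called, 2 were higher and 2 lower at an unadjusted p under 0.05 (4.96% and 5.19% of all genes), and the median log2 fold change was 0.07. Ptafr, the receptor of PAF, was at 62.2, 72.7 and 80.7 CPM in WT and 99.2, 111 and 93.5 CPM in KO libraries, higher in every KO library (log2 fold change 0.53 ± 0.20, adjusted p = 0.394). Pafah2, a PAF-degrading hydrolase, was at 12.4, 16.2 and 8.20 CPM in WT and 7.67, 3.32 and 0.896 CPM in KO libraries (log2 fold change -1.54 ± 0.64, adjusted p = 0.442; 0.0389 without KO replicate 1). Pcyt1a, the rate-setting enzyme of phosphatidylcholine synthesis, was at 177, 179.9 and 134 CPM in WT and 116, 82.9 and 125 CPM in KO libraries (log2 fold change -0.56 ± 0.19, adjusted p = 0.379). None of these 3 passed.

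The 5 genes that edgeR called lower were predicted genes. Gm10717, Gm10800, Gm10801 and Gm21738 belong to a repeat-like family, and Gm6969 is a processed pseudogene. The family lies at chr9:3025417-3033289 (Gm10717), chr2:98666547-98667301 (Gm10800, minus strand), chr2:98662237-98664083 (Gm10801) and chr14:19415857-19418930 (Gm21738, minus strand) in GRCm38, and GENCODE M21 annotates all 4 as protein coding. They share a stretch of 49 bases, given in capitals with its 24 flanking bases on each side, read on the annotated strand. It is shown because a read that lies wholly within this stretch cannot be assigned to 1 of the 4 genes.

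Gm10717: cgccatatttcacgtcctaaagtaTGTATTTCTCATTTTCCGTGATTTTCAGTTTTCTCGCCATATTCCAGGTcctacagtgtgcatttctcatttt
Gm10800: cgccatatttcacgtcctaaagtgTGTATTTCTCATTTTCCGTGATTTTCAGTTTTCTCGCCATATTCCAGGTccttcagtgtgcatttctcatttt
Gm10801: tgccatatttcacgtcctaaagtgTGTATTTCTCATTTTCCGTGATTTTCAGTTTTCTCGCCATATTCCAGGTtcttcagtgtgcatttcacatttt
Gm21738: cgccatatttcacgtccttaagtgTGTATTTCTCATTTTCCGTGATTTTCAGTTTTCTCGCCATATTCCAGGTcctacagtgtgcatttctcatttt

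In all, 13 annotated genes shared at least one 31-base word with Gm10800 or were Gm10800 itself, most of them within chr9:3000282-3038316. Of the 12 in the count table, 11 were tested. How reads that match several places were counted is not given in the sources used here, so values of single members are uncertain and the family is also given as a whole.

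Together the family took 1.91%, 1.61% and 1.81% of the counts in WT and 0.749%, 0.558% and 0.791% in KO libraries. The highest KO library was below the lowest WT library by more than the spread within either group. Gm10800 held most of this, at 15018, 12755 and 14279 CPM in WT and 5964, 4463 and 6328 CPM in KO libraries (log2 fold change -1.29 ± 0.15, edgeR adjusted p = 0.0065). Gm21738 was at 833, 659 and 732 CPM in WT and 218, 159.9 and 262 CPM in KO libraries (log2 fold change -1.76 ± 0.18, adjusted p = 0.00536). In the other 36 libraries of the series Gm10800 was between 0 and 17320 CPM. The family's share also differed between stromal cell groups. It was 2.11%, 1.43% and 1.74% in libraries labelled VmSC5 PBS, and 0.427%, 0.395% and 0.652% in those labelled VmSC5 without Treg. What sets this share was not tested.

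All 11 tested members were lower and without overlap between groups, with a median log2 fold change of -1.57 and a range of -1.86 to -0.94, beside 10.1% of all genes lower without overlap. Of these, 4 were called, and without WT replicate 1 or 3 none was. Members were not independent: Gm10801 had 19.3 to 20.3 counts for every 100 of Gm10800 in the 6 Treg libraries and 17.2 to 21.9 in the 32 other libraries of the series with enough counts. All predicted genes together took 3.06% to 3.31% of WT and 1.53% to 2.01% of KO counts.

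**Figure D3:**
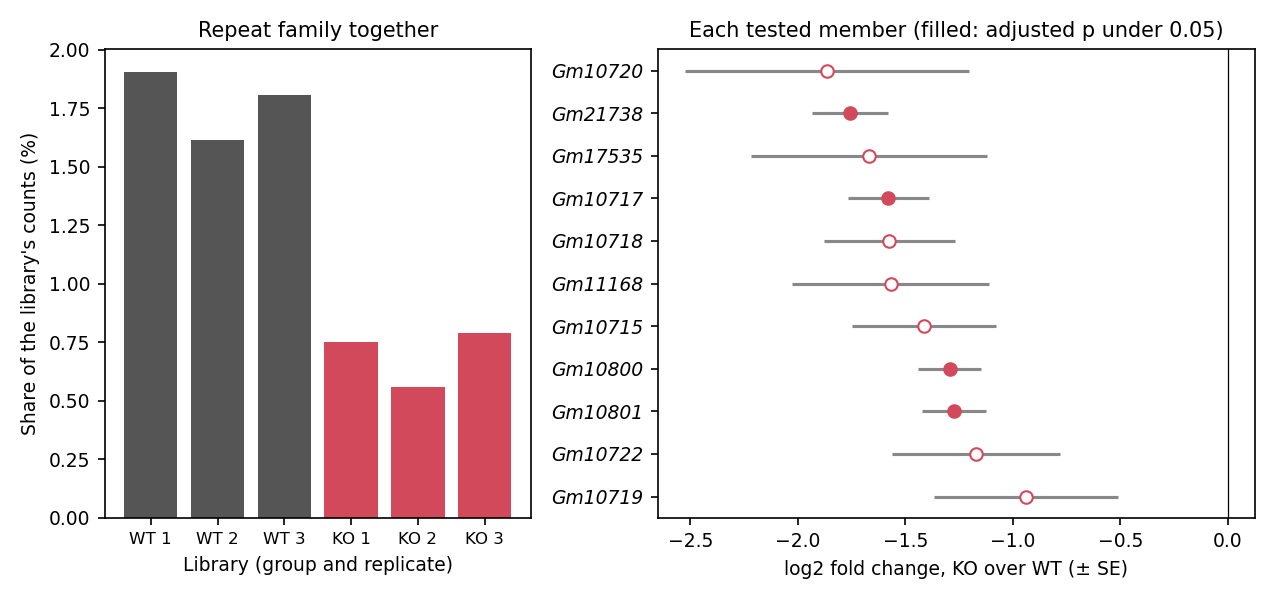
Left, the family's share of all counts in each library (grey WT, red KO). Right, the log2 fold change with its SE for each of the 11 tested members, filled where called: all points lie below 0, between -1.86 and -0.94.

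Gm6969 was the largest called difference. It lies on the minus strand at chr12:24638669-24639010 (GRCm38) and had 100, 64 and 94 counts in WT and 4, 3 and 4 in KO libraries. These were 22.5, 19.2 and 24.1 CPM in WT and 0.959, 1.99 and 1.19 CPM in KO libraries, a 15.9-fold lower mean in KO (log2 fold change -4.05 ± 0.49, edgeR adjusted p = 0.0065). In the other 36 libraries it was between 0 and 3.42 CPM, so the WT Treg, and not the KO Treg, stood apart from the rest of the series. The call of the gene Gm6969 held without KO replicate 1 (adjusted p = 0.000863) or 2 (0.0134) and when the repeat family was left out (0.0391). It was lost in voom (0.0559), without KO replicate 3 (0.111) and without any 1 WT library (0.0569 to 0.110).

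The pseudogene copies the coding sequence of Cox7a2l, a mitochondrial gene at chr17:83501918-83517330 (GRCm38) that acts in assembling respiratory supercomplexes. The coding sequence has 336 bases and Gm6969 342, of which 334 aligned bases are identical and 2 differ, with 1 gap of 6 bases that starts at base 214 of Gm6969. The sequences around it are shown because reads across it can separate the pseudogene from its parent. The 6 bases that only Gm6969 holds in the reference are in capitals.

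Gm6969: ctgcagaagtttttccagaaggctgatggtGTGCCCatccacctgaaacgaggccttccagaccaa
Cox7a2l: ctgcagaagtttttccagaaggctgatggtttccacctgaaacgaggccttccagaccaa

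Cox7a2l itself was at 135, 142 and 146 CPM in WT and 202, 247 and 211 CPM in KO libraries, higher in every KO library (log2 fold change 0.68 ± 0.16, edgeR adjusted p = 0.291; 0.0104 without KO replicate 1). Gm6969 was thus far lower in the group in which its parent was higher. Inbred mouse strains are known to carry Cox7a2l alleles that differ by 6 bases of coding sequence. The strain of the animals is not in the labels and the reads were not examined, so which allele each library carried was not tested.

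By the rule for the largest differences, 211 genes had an unadjusted p under 0.01, a group mean of 20 CPM or more and no overlap, 90 higher and 121 lower. The 12 largest in each direction are given here, and Lpcat2 is the one of these 24 that passed edgeR over all genes. The genes higher in KO had mixed roles. Gnb2, a G protein beta subunit, was at 50.7, 32.6 and 49.7 CPM in WT and 51.1, 314 and 185 CPM in KO libraries (log2 fold change 2.08 ± 0.58, adjusted p = 0.364). Wipf1, a partner of the actin regulator WASP, was at 64.4, 75.4 and 62.5 CPM in WT and 78.6, 368 and 354 CPM in KO libraries (log2 fold change 2.03 ± 0.51, adjusted p = 0.347). For both, KO replicate 1 lay close to WT and the other KO libraries were 3-fold or more above it.

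Others were spread in the same way. Phlda1, a gene induced by T cell receptor signals, was at 10.4, 18.9 and 14.1 CPM in WT and 20.9, 86.3 and 56.7 CPM in KO libraries (log2 fold change 1.95 ± 0.47, DESeq2 adjusted p = 0.00965). Wbp11, a splicing factor, was at 63.1, 50.9 and 60.2 CPM in WT and 80.1, 208 and 153 CPM in KO libraries (log2 fold change 1.38 ± 0.31, DESeq2 adjusted p = 0.0094). Arl2bp, which binds the small GTPase ARL2, was at 10.8, 12.9 and 14.3 CPM in WT and 18.7, 43.8 and 49.9 CPM in KO libraries (log2 fold change 1.59 ± 0.39, DESeq2 adjusted p = 0.0313). KO replicate 1 was the lowest KO library for all 3 genes.

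In 3 further genes KO replicate 1 was also well above every WT library. Isg20l2, a ribosomal RNA exonuclease, was at 17.6, 18.6 and 20.8 CPM in WT and 33.8, 55.1 and 55.5 CPM in KO libraries (log2 fold change 1.37 ± 0.29, DESeq2 adjusted p = 0.0078). Tmem87a, a membrane protein of the Golgi, was at 18.3, 35 and 34.1 CPM in WT and 92.5, 61 and 64.2 CPM in KO libraries (log2 fold change 1.36 ± 0.29, DESeq2 adjusted p = 0.0073), with KO replicate 1 the highest. Rai14, an actin-associated ankyrin protein, was at 3.83, 8.98 and 5.89 CPM in WT and 21.6, 29.9 and 12.8 CPM in KO libraries (log2 fold change 1.81 ± 0.47, DESeq2 adjusted p = 0.0461). Det1, a ubiquitin ligase component, Snx18, a sorting nexin, and Kif3c, a kinesin, had log2 fold changes of 1.48 ± 0.42, 1.42 ± 0.40 and 1.28 ± 0.36 and passed neither edgeR nor DESeq2. For Det1 and Snx18, KO replicate 1 lay next to the WT libraries.

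The genes lower in KO were led by Kcna4, a voltage-gated potassium channel subunit, at 18.3, 40.1 and 34.8 CPM in WT and 3.60, 5.31 and 5.37 CPM in KO libraries. Its log2 fold change of -2.69 ± 0.43 missed the edgeR threshold (adjusted p = 0.0641) but passed DESeq2 (adjusted p = 1.36e-05). Slc15a2, a peptide transporter, was at 19.4, 14.1 and 28.4 CPM in WT and 6.95, 2.65 and 1.19 CPM in KO libraries (log2 fold change -2.41 ± 0.57, DESeq2 adjusted p = 0.0153). Rasgrf1, an exchange factor for RAS, was at 20.5, 17.4 and 23.6 CPM in WT and 4.79, 1.33 and 5.97 CPM in KO libraries (log2 fold change -2.21 ± 0.47, DESeq2 adjusted p = 0.00448). Irs2, the insulin and IL-4 receptor substrate, was at 30.4, 33.8 and 41 CPM in WT and 4.31, 7.30 and 13.1 CPM in KO libraries (log2 fold change -2.05 ± 0.41, DESeq2 adjusted p = 0.0024). For these 4 genes every KO library was below 14 CPM and every WT library above it, and each also passed edgeR without KO replicate 1 (adjusted p from 0.00308 to 0.0205). None of the 4 passed edgeR without KO replicate 2 (adjusted p from 0.164 to 0.385).

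Several of the lower genes have long transcripts. Prkdc, the catalytic subunit of the DNA-dependent protein kinase, was at 87.4, 116 and 108 CPM in WT and 36, 22.6 and 57.3 CPM in KO libraries (log2 fold change -1.37 ± 0.29, DESeq2 adjusted p = 0.00468), and its longest transcript has 12647 bases. Dnajc13, an endosomal chaperone, was at 68.3, 40.7 and 53.3 CPM in WT and 21.6, 15.9 and 25.1 CPM in KO libraries (log2 fold change -1.32 ± 0.28, DESeq2 adjusted p = 0.0087, 8012 bases). Uhrf1bp1, Ppp2r3a, a phosphatase regulatory subunit, and Tbc1d13, a RAB regulator, had log2 fold changes of -1.47 ± 0.39, -1.35 ± 0.42 and -1.37 ± 0.43 and passed neither tool. Naip6, of a family of near-identical inflammasome receptors whose reads may be split between copies, was at 32.7, 34.4 and 43 CPM in WT and 10.1, 3.32 and 20.9 CPM in KO libraries (log2 fold change -1.58 ± 0.45, adjusted p = 0.347).

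Osm itself ranked among the 12 largest lower genes, and so did H2-Eb1, an MHC class II beta chain. H2-Eb1 was at 73.7, 53.3 and 76.9 CPM in WT and 25.6, 30.5 and 11.9 CPM in KO libraries (log2 fold change -1.57 ± 0.34, DESeq2 adjusted p = 0.00468). Cd74, the invariant chain, was at 57.5, 40.4 and 24.6 CPM in WT and 67.1, 195 and 66.3 CPM in KO libraries, higher in every KO library (log2 fold change 1.45 ± 0.47, adjusted p = 0.376 in edgeR and 0.0162 without KO replicate 1). Of 8 tested genes of class II presentation these were the 1 higher and the 1 lower at an unadjusted p under 0.05 (4.96% and 5.19% of all genes).

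**Figure D4:**
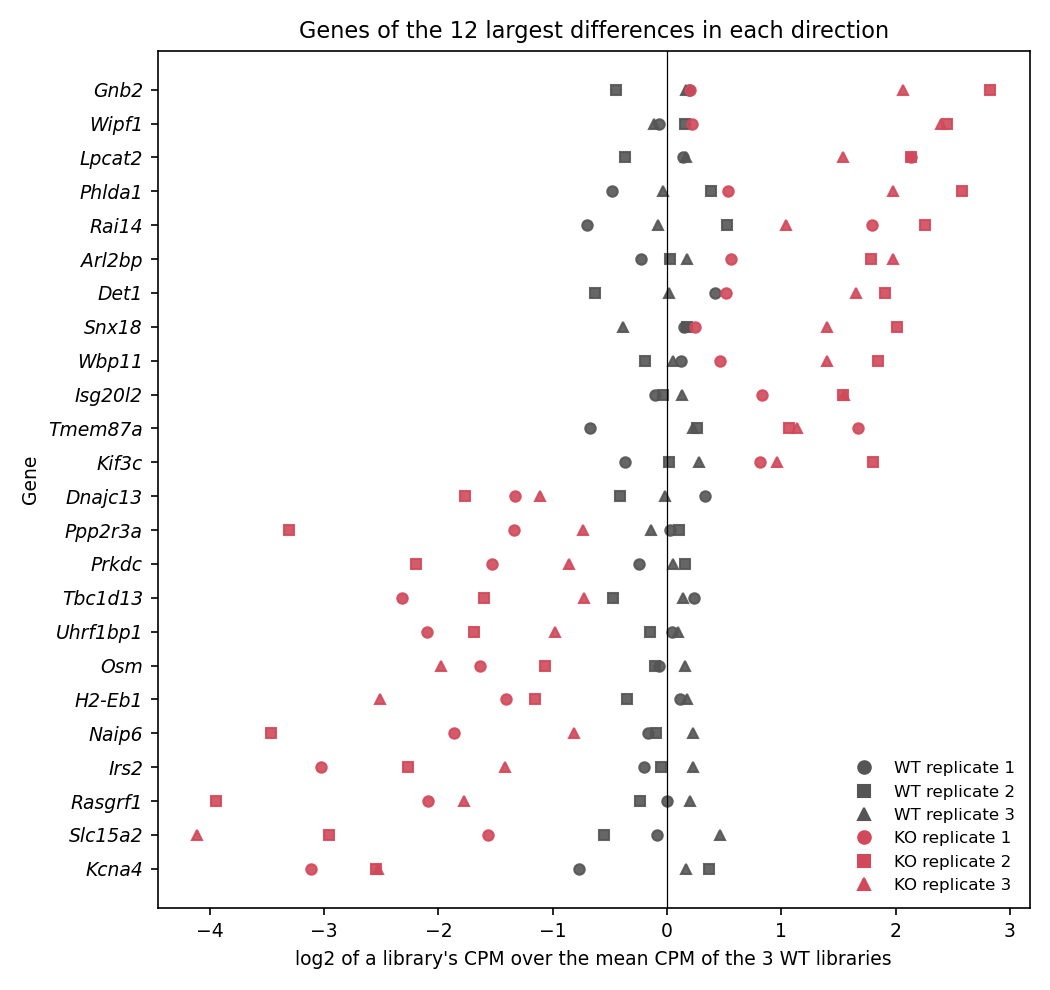
Log2 of each library's CPM over the WT mean for the 12 largest differences in each direction (grey WT, red KO; circles replicate 1, squares replicate 2, triangles replicate 3). For Gnb2, Wipf1 and Snx18 the circle of KO replicate 1 lies next to the WT symbols and the other KO symbols lie far to the right.

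Genes of Treg identity held 0 called genes of 24 tested. At an unadjusted p under 0.05, 2 were higher and 2 lower (4.96% and 5.19% of all genes), the median log2 fold change was 0.05, and for 21 of the 24 the 95% interval stayed inside 2-fold, against 51.6% of all genes, which include many at lower levels. Ctla4, the inhibitory receptor, was at 681, 781 and 681 CPM in WT and 786, 428 and 614 CPM in KO libraries (log2 fold change -0.20 ± 0.18). Ikzf2, which encodes Helios, was at 779.8, 916 and 826 CPM in WT and 598, 688 and 889 CPM in KO libraries (log2 fold change -0.17 ± 0.16). Nt5e, the ecto-enzyme CD73 that makes adenosine, was at 113, 167 and 119 CPM in WT and 214, 163 and 222 CPM in KO libraries (log2 fold change 0.62 ± 0.19, adjusted p = 0.364).

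Further core genes gave values in both directions, none past the test. Tnfrsf9, the costimulatory receptor 4-1BB, was at 84.5, 64.6 and 120.2 CPM in WT and 35.2, 57.7 and 58.2 CPM in KO libraries (log2 fold change -0.81 ± 0.29, adjusted p = 0.384). Il2rb, the signalling chain of the IL-2 receptor, was at 1227, 1298 and 1381 CPM in WT and 1312, 2156 and 1857 CPM in KO libraries (log2 fold change 0.49 ± 0.18, adjusted p = 0.395), and it was 1 of 2 calls of the list, both higher, without KO replicate 1, where 3.55% of all genes were called higher (adjusted p = 0.00391). Il10ra had a log2 fold change of -0.31 ± 0.14 (adjusted p = 0.489).

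The regulators and receptors of visceral fat Treg held 0 called genes of 36 tested, with 1 higher and 3 lower at an unadjusted p under 0.05 (4.96% and 5.19% of all genes) and a median log2 fold change of -0.03. Gata3 was at 1639, 1726 and 1959 CPM in WT and 2285, 1628 and 1477 CPM in KO libraries (log2 fold change 0.05 ± 0.17). Il1rl1, the IL-33 receptor ST2, was at 675, 662 and 655 CPM in WT and 667, 376 and 729 CPM in KO libraries (log2 fold change -0.13 ± 0.20). Klrg1, a marker of mature tissue Treg, was at 847, 825 and 905 CPM in WT and 867, 716 and 815 CPM in KO libraries (log2 fold change -0.07 ± 0.13, 95% interval -0.35 to 0.21). Pparg was at 43.7, 40.1 and 46.4 CPM in WT and 39.3, 19.9 and 32.8 CPM in KO libraries, lower in every KO library (log2 fold change -0.45 ± 0.27, adjusted p = 0.624). None of the 4 passed the test.

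Within that list Prdm1, which encodes the effector regulator BLIMP1, was at 78.6, 106 and 113 CPM in WT and 70.7, 43.8 and 44.8 CPM in KO libraries (log2 fold change -0.86 ± 0.24, adjusted p = 0.347). It was the single call of the list without KO replicate 1 (adjusted p = 0.0118), where 1.4% of all genes were called lower. Cxcr4, a chemokine receptor, was at 21.4, 21 and 14.3 CPM in WT and 10.3, 1.33 and 8.96 CPM in KO libraries (log2 fold change -1.33 ± 0.51, adjusted p = 0.407). Itgb8, the integrin chain that activates TGF-beta, was at 47.1, 37.1 and 31.5 CPM in WT and 28.5, 25.2 and 18.8 CPM in KO libraries (log2 fold change -0.64 ± 0.28, adjusted p = 0.476). Lgals1, which encodes galectin-1, was at 698, 687 and 844 CPM in WT and 1136, 1076 and 839.9 CPM in KO libraries (log2 fold change 0.49 ± 0.16, adjusted p = 0.367).

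Among 30 tested secreted factors, Osm included, 0 were called, with 5 higher and 4 lower at an unadjusted p under 0.05, where 4.96% and 5.19% of all genes were. Ltb, a lymphotoxin chain, was at 438, 460.0 and 509 CPM in WT and 656, 791 and 632 CPM in KO libraries, without overlap (log2 fold change 0.60 ± 0.15, adjusted p = 0.323; 0.0118 without KO replicate 1). Ccl5, a chemokine for T cells and monocytes, was at 184, 212 and 261 CPM in WT and 320.2, 427 and 282 CPM in KO libraries (log2 fold change 0.69 ± 0.20, adjusted p = 0.347; 0.0329 without KO replicate 1). Areg, the growth factor amphiregulin made by tissue Treg, was at 321, 369.9 and 389 CPM in WT and 413, 387 and 393 CPM in KO libraries (log2 fold change 0.18 ± 0.14, 95% interval -0.12 to 0.48). Osm was the factor of this list with the smallest p-value, and without KO replicate 1 the list held 4 higher and 2 lower calls of 31 tested, where 3.55% and 1.4% of all genes were called.

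TGF-beta signalling genes held 0 called of 17 tested, with 0 higher and 3 lower at an unadjusted p under 0.05 (4.96% and 5.19% of all genes) and a median log2 fold change of -0.16. Tgfbr3, the co-receptor betaglycan, was at 6.76, 5.09 and 9.48 CPM in WT and 1.68, 0.663 and 2.09 CPM in KO libraries (log2 fold change -2.12 ± 0.64, adjusted p = 0.364). Ski, a corepressor of SMAD proteins, had a log2 fold change of -0.52 ± 0.20 (adjusted p = 0.398). Itgb8, given above, was the other of the 3.

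Genes of resting and circulating T cells had 0 calls among 20 tested, where 0.0526% of all genes were called. The groups did not overlap for 3 higher and 3 lower members, beside 5.94% and 10.1% of all genes. S1pr1, the receptor for exit from tissue, was at 409, 363 and 378 CPM in WT and 528, 531 and 491 CPM in KO libraries (log2 fold change 0.47 ± 0.13, adjusted p = 0.347). Klf2, the transcription factor that induces S1pr1, was at 20.3, 16.2 and 17.9 CPM in WT and 25.2, 63 and 29.6 CPM in KO libraries (log2 fold change 1.13 ± 0.37, adjusted p = 0.372). Both were higher in every KO library and both passed without KO replicate 1 (adjusted p = 0.0454 and 0.029), where 3.55% of all genes were called higher. Neither S1pr1 nor Klf2 passed without KO replicate 2 (edgeR adjusted p = 0.385 and 0.571). Ly6c1 and Satb1 were lower in every KO library, with log2 fold changes of -0.68 ± 0.26 and -0.67 ± 0.26 (adjusted p = 0.398 and 0.418), and the median of the list was -0.02.

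Of 31 tested genes of the T cell receptor and costimulation, 0 were called, 2 were higher and 1 lower at an unadjusted p under 0.05 (4.96% and 5.19% of all genes), and 30 had a 95% interval inside a 2-fold change, against 51.6% of all genes, many of them at lower levels. For this list the median log2 fold change was 0.02. Ptpn22, a phosphatase that restrains receptor signals, was at 409, 420.2 and 396 CPM in WT and 604, 493 and 514 CPM in KO libraries (log2 fold change 0.43 ± 0.13, adjusted p = 0.364). Cblb, a ubiquitin ligase that restrains the same signals, was at 257, 244 and 279 CPM in WT and 195, 168 and 201 CPM in KO libraries (log2 fold change -0.43 ± 0.15, adjusted p = 0.376). Trac, the receptor alpha constant gene, had a log2 fold change of 0.40 ± 0.14 (adjusted p = 0.385), and Nfatc1 one of 0.50 ± 0.24 (adjusted p = 0.511; 0.00969 without KO replicate 1).

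Immediate early and stress genes held 0 edgeR calls of 40 tested, with 8 higher and 4 lower at an unadjusted p under 0.05, beside 4.96% and 5.19% of all genes. Without KO replicate 1, 4 were called, all higher, where 3.55% of all genes were. Hspa1a, an inducible heat shock protein, was at 106, 83.8 and 96.3 CPM in WT and 145, 156 and 218 CPM in KO libraries (log2 fold change 0.90 ± 0.20, adjusted p = 0.224 in edgeR and 0.0229 in DESeq2). Its near-identical neighbour Hspa1b, with which reads may be confused, was at 6.53, 7.18 and 10.2 CPM in WT and 8.15, 15.3 and 13.4 CPM in KO libraries (log2 fold change 0.64 ± 0.45). Egr1, an immediate early factor, was at 473, 569.6 and 477 CPM in WT and 231, 327 and 398 CPM in KO libraries, lower in every KO library (log2 fold change -0.63 ± 0.19, adjusted p = 0.367).

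The pair Btg1 and Btg2, related genes of cell quiescence, lay on opposite sides. Btg1 was at 122, 133 and 134 CPM in WT and 171, 195 and 183 CPM in KO libraries (log2 fold change 0.54 ± 0.16, adjusted p = 0.358). Btg2 was at 828, 973 and 848 CPM in WT and 702, 604 and 657 CPM in KO libraries (log2 fold change -0.39 ± 0.13, adjusted p = 0.372).

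Genes of the NF-kappaB pathway, apoptosis and proliferation held 0 called of 20, 21 and 32 tested, where 0.0526% of all genes were called. Their medians were -0.03, -0.06 and -0.04. At an unadjusted p under 0.05 they held 0, 1 and 1 higher and 1, 1 and 1 lower (4.96% and 5.19% of all genes). Traf3, an inhibitor of alternative NF-kappaB signals, was lower in every KO library (log2 fold change -0.48 ± 0.22, adjusted p = 0.49). Bak1, an effector of mitochondrial apoptosis, was at 4.73, 5.39 and 5.64 CPM in WT and 4.79, 35.2 and 15.2 CPM in KO libraries, with KO replicate 1 at the WT level (log2 fold change 1.80 ± 0.64, adjusted p = 0.384; 0.0102 without that library). Mcm7, a subunit of the replication helicase, and Tk1, thymidine kinase, had log2 fold changes of 0.64 ± 0.24 and -0.77 ± 0.35 (adjusted p = 0.395 and 0.486).

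Type I interferon genes held 0 edgeR calls of 33 tested, with 3 higher and 1 lower at an unadjusted p under 0.05, beside 4.96% and 5.19% of all genes, and a median log2 fold change of 0.15. Ifit1bl1, of the IFIT family of RNA-binding interferon-induced proteins, was at 25.5, 38.6 and 28.7 CPM in WT and 75.5, 47.8 and 63 CPM in KO libraries (log2 fold change 1.05 ± 0.26, adjusted p = 0.323 in edgeR and 0.0388 in DESeq2). Its relative Ifit1, with which it may share reads, was at 10.4, 18.9 and 10.5 CPM in WT and 32.4, 13.3 and 55.2 CPM in KO libraries (log2 fold change 1.41 ± 0.45, adjusted p = 0.367). Ly6e was at 1792, 1698 and 1944 CPM in WT and 1788, 3136 and 2459 CPM in KO libraries (log2 fold change 0.49 ± 0.19, adjusted p = 0.425; 0.00638 without KO replicate 1), and Slfn5 had a log2 fold change of -0.96 ± 0.42 (adjusted p = 0.475).

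Fatty acid and triglyceride genes held 0 called of 37 tested, 1 higher and 3 lower at an unadjusted p under 0.05, beside 4.96% and 5.19% of all genes. Fasn, the fatty acid synthase, was at 112, 136 and 149 CPM in WT and 63.8, 87.6 and 67.8 CPM in KO libraries, lower in every KO library (log2 fold change -0.83 ± 0.21, adjusted p = 0.336). Acly, which supplies the acetyl-CoA for that synthesis, was at 404, 397 and 417 CPM in WT and 552, 509 and 475 CPM in KO libraries, higher in every KO library (log2 fold change 0.37 ± 0.13, adjusted p = 0.384). Dgat1, the last enzyme of triglyceride synthesis, had a log2 fold change of -0.41 ± 0.16 (adjusted p = 0.407), and Scd2, a fatty acid desaturase, one of -0.79 ± 0.35 (adjusted p = 0.472).

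Cholesterol genes held 0 called of 33 tested, with 4 higher and 0 lower at an unadjusted p under 0.05, beside 4.96% and 5.19% of all genes, and a median log2 fold change of 0.15. The 4 were Abcg1, a sterol exporter (0.52 ± 0.19), Nr1h2, the liver X receptor beta (0.48 ± 0.20), Fdft1, squalene synthase (0.61 ± 0.26), and Npc2, a lysosomal sterol carrier (0.31 ± 0.14), each with an adjusted p of 0.394 or more.

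Oxidative phosphorylation genes had a median log2 fold change of 0.21, with 0 called of 40 tested, 2 higher and 0 lower at an unadjusted p under 0.05 (4.96% and 5.19% of all genes) and 39 with an interval inside 2-fold. Cox4i1, a cytochrome c oxidase subunit, was at 458, 449.8 and 481 CPM in WT and 545, 679 and 580.5 CPM in KO libraries (log2 fold change 0.42 ± 0.14, adjusted p = 0.38). The list's median difference from WT was 0.26, 0.18 and 0.09 in KO replicates 1, 2 and 3. Glycolysis and hypoxia genes had a median of 0.07 over 29 tested and 0 called, where 0.0526% of all genes were called. Eno1, enolase, was at 0.38 ± 0.16 and Pfkfb3, a regulator of glycolytic flux, at -0.62 ± 0.27 (adjusted p = 0.442 and 0.466).

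The spread among KO libraries varied with properties of the transcripts. Tested genes were divided into 5 bins of equal size by the GC content of the longest transcript, and each library's median difference from the WT mean was taken on the log2 scale. In KO replicate 2 it ran from -0.35 in the lowest bin to 0.30 in the highest. In KO replicate 1 it ran the other way, from 0.12 to -0.13, and in KO replicate 3 it was 0.02 and 0.04. In the bin with the longest transcripts all 3 KO libraries were below WT, with medians of -0.11, -0.32 and -0.10. Their part in the results was not tested beyond the fit that removes both trends.

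**Figure D5:**
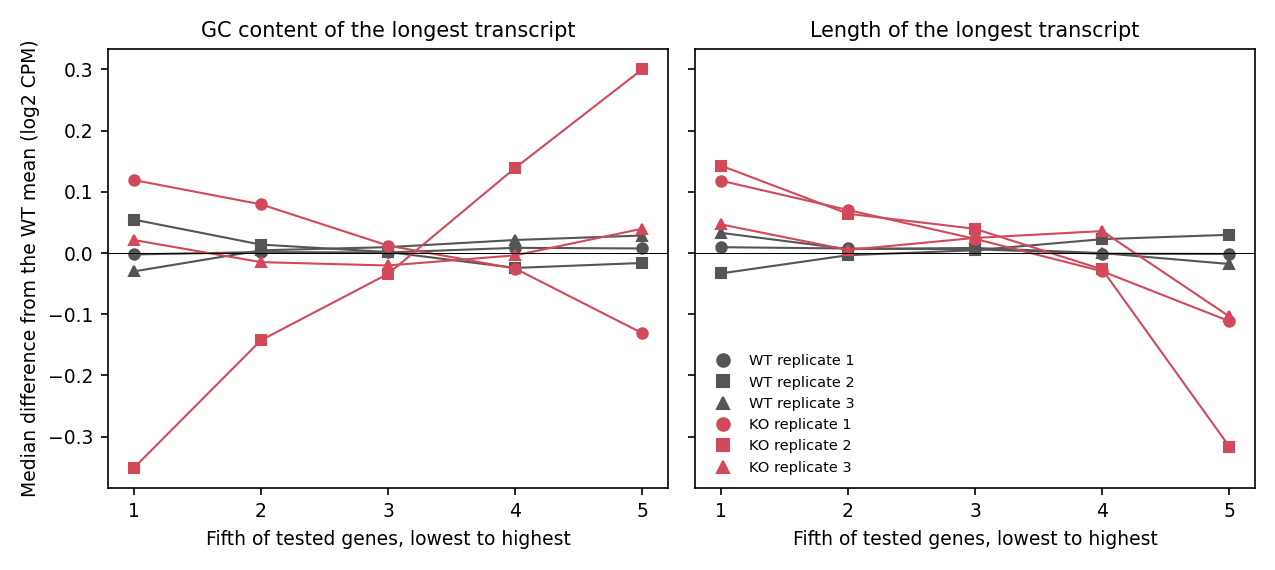
Median difference of each library from the WT mean, in log2 CPM, in 5 bins of GC content (left) and of transcript length (right) of the tested genes (grey WT, red KO). KO replicates 1 and 2 slope in opposite directions with GC content, and all 3 KO libraries fall below 0 in the bin of longest transcripts.

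With these GC and length trends removed, edgeR called 8 genes (0.0709%), 2 higher and 6 lower (0.0177% and 0.0532%), all 6 of the main calls among them. The further calls were Cpm, a carboxypeptidase, higher, and Sod1, superoxide dismutase, lower, named after their values were seen. Osm still did not pass (adjusted p = 0.146).

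Leaving out KO replicate 1 changed the picture most. Then 420 genes rose (3.55% of those tested) and 166 fell (1.4%), with all 6 main calls and 61 DESeq2 calls among them, and 559 genes were called when the GC and length trends were removed as well. The left-out library was on the same side of the WT mean for 287 of the 586 genes (49.0%), for 35.2% of the higher and 83.7% of the lower. It lay outside the WT range on the same side for 211 and on the other side for 203. The higher genes had a median GC content of 53.9% and the lower genes a median length of 6273 bases, against 49.1% and 3296 bases over all tested genes.

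The largest rises of that fit show the division among KO libraries. Lfng, the fringe enzyme that modifies Notch, was at 62.9, 50.9 and 58.9 CPM in WT and 41.5, 497 and 337 CPM in KO libraries (log2 fold change 2.91 ± 0.19 without KO replicate 1, edgeR adjusted p = 6.43e-07). Sf3a2, a splicing factor subunit, was at 19.2, 12.3 and 11.3 CPM in WT and 17, 126 and 80.0 CPM in KO libraries (log2 fold change 2.90 ± 0.30, adjusted p = 5.05e-05). Tnfsf11, the cytokine RANKL, was at 15.8, 15 and 12 CPM in WT and 9.11, 65.7 and 97.3 CPM in KO libraries (log2 fold change 2.58 ± 0.27, adjusted p = 5.45e-05). In each, KO replicate 1 lay within or below the WT range and the other KO libraries were several-fold above it. Nsmce3, Ring1, Scand1, Syap1, Srm, Gnb2 and Epn1 made up the rest of the 10, with log2 fold changes from 2.53 to 3.03.

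The largest falls were more often shared by KO replicate 1. Slc15a2, Kcna4, Rasgrf1, H2-Eb1 and Irs2, already described, were among the 10, with KO replicate 1 also low. Mfsd4a, a membrane transporter, was at 38.8, 54.8 and 47.9 CPM in WT and 31.6, 7.30 and 16.7 CPM in KO libraries (log2 fold change -1.82 ± 0.35 without KO replicate 1, adjusted p = 0.00618). Ctsh, a lysosomal protease, was at 54.3, 49.4 and 46.6 CPM in WT and 40.0, 11.9 and 18.8 CPM in KO libraries (log2 fold change -1.60 ± 0.30, adjusted p = 0.00509). Slc27a1, a fatty acid transporter, was at 14.9, 23.9 and 29.7 CPM in WT and 23, 3.98 and 8.06 CPM in KO libraries (log2 fold change -1.78 ± 0.47, adjusted p = 0.0405), with KO replicate 1 at the WT level. Rapgef2, an exchange factor for RAP, and the zinc finger gene Zfp407 had log2 fold changes of -1.71 ± 0.43 and -1.62 ± 0.35, and for Zfp407 KO replicate 1 was above every WT library. Which of the KO libraries represents the genotype was not tested.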

How the data were processed

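Poly(A) RNA of 3 Osm KO and 3 WT Treg libraries was compared. The authors aligned reads with STAR 2.7.3a to mm10 and counted them with featureCounts, per the submitters' processing notes; annotation release, strand setting and handling of multiply mapped reads are not given in the sources used here. The deposited table holds raw counts per gene (55011 genes). Genes were kept by filterByExpr (minimum count 10), scaled by TMM and tested with the quasi-likelihood test of edgeR 4.0.16 in R 4.3.3, with Benjamini-Hochberg adjustment over all 11416 genes tested and a threshold of 0.05. DESeq2 1.42.0, limma 3.58.1 (voom with sample weights) and the other alternatives are in the closing section. SE is the log2 fold change divided by the root of F. CPM is the count relative to the library total, without TMM scaling. Positions, length and GC came from GENCODE M21 (GRCm38), which held 11280 of the tested genes; sequence sharing used 31-base words. The edgeR and voom fits were tested on simulated data, and the DESeq2 and trend-removed fits were not.

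Members, the 28 gene lists (688 of 689 genes in the table) and the rules were chosen with earlier results of these data known. Named were Osm, Foxp3, called genes, the 12 largest differences in each direction among genes with an unadjusted p under 0.01, at least 20 CPM in a group and no overlap (predicted, Rik, ribosomal, immunoglobulin and T cell receptor segment genes apart), the 4 members of smallest p per list and members described by role, and, without KO replicate 1, the 10 largest calls each way.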

Additional observations from a re-analysis of the deposited data

How the results depend on the processing

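Scaling by size factors (RLE) left all 6 calls. The other alternatives moved the count of called genes. It was 64 in DESeq2 (26 higher, 38 lower), 16 in voom (7 and 9), 199 without the low-count filter (109 and 90), and 460 with all 42 libraries in the fit (178 and 282). It was 0 without predicted genes (0 and 0; 1056 at an unadjusted p under 0.05) and 1 without the repeat family (0 and 1), the latter chosen after seeing the data, as were the fits with GC and length trends removed: 8 calls (2 and 6), and 559 with KO replicate 1 left out as well (408 and 151). Leaving out 1 library at a time gave 0 to 586 calls, 0 to 420 higher and 0 to 166 lower. The replicate block gave 5 calls (0 higher, 5 lower) and ended the call of the gene Lpcat2 (adjusted p = 0.0936). The pairing check gave correlations of -0.08, -0.04 and -0.04 between libraries of the same number, whose best partners were numbers 2, 1 and 1. These values gave no sign of a pairing by number. KO replicates 1 and 2 had opposite GC trends, and each group had few libraries, so the check could not exclude a shared batch. Without the low-count filter the median log2 fold change of all genes moved to -0.16.

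Osm kept its direction in every fit run and passed in DESeq2 (-1.53), without the filter (-1.54), without KO replicate 1 (-1.45) and with trends removed and KO replicate 1 left out (-1.62). Over leave-one-out fits it ranged from -1.77 to -1.31. The difference of Foxp3 KO vs WT reversed without KO replicate 1 (0.17; leave-one-out range -0.40 to 0.17) and with the trends also removed (0.0133). Small differences of 5 uncalled genes turned. The gene Ikzf2 was at 0.12 with trends removed and 0.34 with KO replicate 1 left out as well. The gene Gata3 was at -0.0747 in voom and -0.18 with trends removed and KO replicate 1 left out, and between -0.13 and 0.18 over leave-one-out fits, below 0 without KO replicate 1 or WT replicate 1 (-0.00455). The gene Il1rl1 ran from -0.31 to 0.0878, above 0 without KO replicate 2. The gene Stat3 ran from -0.21 to 0.0181, above 0 without KO replicate 1, and was at 0.0183 with trends removed and 0.0719 with both. The gene Il27ra ran from -0.0593 to 0.14, below 0 without KO replicate 2 or WT replicate 1, and was at -0.0254 with all libraries, -0.0740 with trends removed and -0.0746 with both. The cause was not tested. Depth limits genes near 20 CPM most in KO replicate 2, where that is about 30 counts.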

Other observations

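DESeq2 called genes outside the lists and rules above, and 6 are given here, named after their values were seen. Sod1, which encodes the cytosolic superoxide dismutase, was at 421, 419.9 and 466 CPM in WT and 249.7, 152 and 204 CPM in KO libraries (log2 fold change -1.07 ± 0.17, adjusted p = 5.77e-05 in DESeq2 and 0.0641 in edgeR). Tmsb10, which encodes the actin-binding thymosin beta 10, was at 328, 348 and 429 CPM in WT and 713, 992 and 560.5 CPM in KO libraries (log2 fold change 1.08 ± 0.21, adjusted p = 0.00468 in DESeq2 and 0.178 in edgeR). Cpm, a membrane carboxypeptidase, was at 122, 122 and 131 CPM in WT and 256, 212 and 205 CPM in KO libraries (log2 fold change 0.88 ± 0.16, adjusted p = 0.00084 in DESeq2 and 0.139 in edgeR). The groups did not overlap for any of these 3 genes.

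A few genes were at or near 0 in all libraries of 1 group. B230118H07Rik, at chr2:101560781-101649532 in GRCm38, had 0 counts in all 3 WT libraries and 13, 11 and 27 counts in KO. Against a floor of 3 counts over the WT group it was at least 22.0-fold higher in KO (adjusted p = 0.00118 in DESeq2 and 0.178 in edgeR). The pseudogene Gm8210, at chr1:43189156-43189638, had 42, 28 and 24 counts in WT and 1, 0 and 3 in KO (adjusted p = 0.00965 in DESeq2). The pseudogene Gm18828, at chr1:36764863-36765874, had 33, 61 and 33 counts in WT and 1, 1 and 5 in KO (adjusted p = 0.00448 in DESeq2). All 3 lie on chromosomes other than that of Osm. Calca, the gene of calcitonin and CGRP and a member of the innate lymphoid marker list, was at 16.2, 13.5 and 17.7 CPM in WT and 4.07, 2.65 and 1.79 CPM in KO libraries (log2 fold change -2.40 ± 0.48, adjusted p = 0.00448 in DESeq2 and 0.178 in edgeR).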
